A study of Homo sapiens with 48 samples.

Results

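MYC, MAX, MXD1, MXD3, MXD4, MXI1 and MNT form the core of the transcription factor network around MYC, and their mRNA was followed in H1975 cells under gefitinib and 2 plant preparations. The 7 genes were taken by symbol from a table of 27978 gene symbols, and all 7 were among the 15789 genes with enough counts to test. H1975 is a non-small cell lung cancer line with a mutated EGFR, the receptor tyrosine kinase that gefitinib inhibits. Whether the mutated form in this line responds to gefitinib was not tested here. Untreated cells were collected at 0 h and at 24 h, and the 14 treated groups are labelled 24 h. The doses were 50 and 75 µM for gefitinib, 1 and 2 mg/mL for CKI, and 2.5 and 5 mg/mL for YFSJ. Each was given alone, and every dose of CKI or YFSJ was combined with every dose of gefitinib. Groups are named below by agent and dose, so that CKI 2 + gefitinib 75 stands for 2 mg/mL with 75 µM. CKI is compound kushen injection, an extract used in Chinese medicine. YFSJ is given only by its abbreviation. Each of the 16 groups holds 3 libraries, which the submitters call biological replicates of a single line. The labels name no vehicle control, and untreated cells at 24 h served as the reference.

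MYC is a basic helix-loop-helix leucine zipper protein that binds DNA only as a dimer with MAX, at E-box sites, and switches on genes of ribosome assembly, nucleotide synthesis and growth. MXD1, MXD3, MXD4, MXI1 and MNT compete for MAX, bind the same sites and recruit the SIN3 histone deacetylase complex, which represses those genes. In epithelial and blood lineages MYC is typical of dividing cells, whereas MXD1, MXD4 and MXI1 rise as cells leave the cycle. Signalling from EGFR is among the inputs that raise MYC transcription, and MYC mRNA is short-lived. Whether gefitinib inhibited EGFR in these cells was not measured here.

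The libraries held 16428398 to 26264162 counts, so that 3 counts, the limit that a count of 0 allows, correspond to 0.114 to 0.183 CPM (counts scaled to a library of 1000000). Every library had at least 8117 counts of MYC and at least 60 of MXD3, the least counted member. Of 8 lung epithelial markers, 5 had a median of at least 1 CPM (NKX2-1, NAPSA, SFTA3, FOXA2 and MUC1), while SFTPB, SFTPC and SCGB3A2 were at or near 0. Of 6 luminal breast markers, checked because the catalogue number in the labels is that of a breast cancer line, 1 had a median of at least 1 CPM, AREG at 2.03. ESR1 and PGR were at most 11 and 0 counts in any library, TFF3 at most 6, GATA3 at most 30 and TFF1 at most 79. In 10 libraries 13 of 14 liver markers stood above every other library, with 2581 to 3557 counts of ALB against at most 8 in the other 38. The 10 are all 3 of YFSJ 2.5, all 3 of CKI 2 + gefitinib 75, libraries 2 and 3 of CKI 1 + gefitinib 75, and libraries 1 and 3 of CKI 2 + gefitinib 50. The mitochondrial ribosomal transcript RNR2 took 0.318% to 2.18% of counts. Library 2 of YFSJ 2.5 + gefitinib 75 was highest at 2.18%, beside 0.811% and 0.957% in its group, and libraries 1 and 2 of untreated 0 h had 1.22% and 1.69% beside 0.457% in library 3. A call lost without the 10 libraries, or with a term for the liver transcripts, is named beside its result.

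MXD4, MNT and MXI1, whose mRNA was higher in both gefitinib groups than in untreated cells at 24 h, are shown here with the stretches of their promoters in which a searched motif was found. RefSeq windows (GRCh38.p14) from 250 bases before to 50 after the start matched 6 of the 7 members with 9 windows. MYC was the member without a window, so its promoter was not searched. Both strands were searched for 3 motifs, whose matches in the member windows did not overlap: the E-box CACGTG, the FOXO-type motif TGTTTAC and the E2F-type motif TTTNGCGC. The E-box was found in the windows of MXD4 and MNT, 238 and 193 bases before the start, and in 7.26% of all 35116 RefSeq windows. The FOXO-type motif was found in 2 of the 3 MXI1 windows, 151 and 2 bases before their starts, and in 3.42% of all windows. The E2F-type motif was in none of the 9 member windows and in 1.79% of all. MXD1 mRNA was also higher in both gefitinib groups than in untreated cells at 24 h, and its window matched none of the 3 motifs. Capitals mark the motif in the 3 sequences, which are written 5′ to 3′ on the gene's strand.
MXD4, chr4:2262282-2262359, minus strand: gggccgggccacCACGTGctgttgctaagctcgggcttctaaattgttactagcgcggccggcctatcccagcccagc
MNT, chr17:2401188-2401310, minus strand: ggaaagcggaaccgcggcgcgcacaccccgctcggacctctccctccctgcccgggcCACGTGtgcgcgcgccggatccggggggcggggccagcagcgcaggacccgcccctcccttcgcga
MXI1, chr10:110210020-110210146, plus strand: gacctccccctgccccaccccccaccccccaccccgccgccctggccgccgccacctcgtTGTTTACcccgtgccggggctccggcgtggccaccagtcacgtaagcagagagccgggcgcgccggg
A match describes the letters in the window, and no binding was measured.

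MYC was the most abundant member in every group and spanned 3.68-fold between the highest and the lowest group mean. Untreated cells at 24 h held 1619, 1694 and 1756 CPM in the 3 libraries, and those at 0 h 1464, 1313 and 1908. Gefitinib 50 held 1060.2, 994 and 866 CPM and gefitinib 75 1051, 931 and 1103, so that every gefitinib library lay below every untreated one. YFSJ 2.5 held 899, 814 and 889 CPM and YFSJ 5 1027, 949.7 and 884, again below all untreated libraries. CKI behaved otherwise: CKI 1 held 1371, 1401 and 1315 CPM, below the untreated range at 24 h, and CKI 2 1574, 1757 and 1586, which overlapped it. In bulk RNA, fewer cells with MYC mRNA and less MYC mRNA per cell cannot be told apart.

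Among the combinations, CKI 2 + gefitinib 75 was the highest group of all, with 2877, 2676 and 2742 CPM, and none of its libraries overlapped another group. CKI 1 + gefitinib 75 held 1908, 1906 and 1849 CPM, just above the untreated range at 24 h. CKI 2 + gefitinib 50 held 1682, 1852 and 1688 CPM and overlapped untreated cells at 24 h, whereas CKI 1 + gefitinib 50, with 928, 965 and 761, lay with gefitinib alone. With YFSJ the lower dose gave 728, 767 and 759 CPM beside gefitinib 50 and 1067, 490.0 and 1026 beside gefitinib 75, where library 2 is the one with the highest RNR2 share. The higher YFSJ dose gave 1412, 1386 and 1374 CPM beside gefitinib 50 and 1108, 1330.3 and 1213 beside gefitinib 75, above both agents alone and below untreated cells at 24 h. The 0 h libraries overlapped both groups. When the 16 groups are ordered by mean, neighbours overlapped in 13 of 15 places, the exceptions being the gap under CKI 2 + gefitinib 75 and the gap between YFSJ 5 + gefitinib 75 and gefitinib 75.

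**Figure D1:**
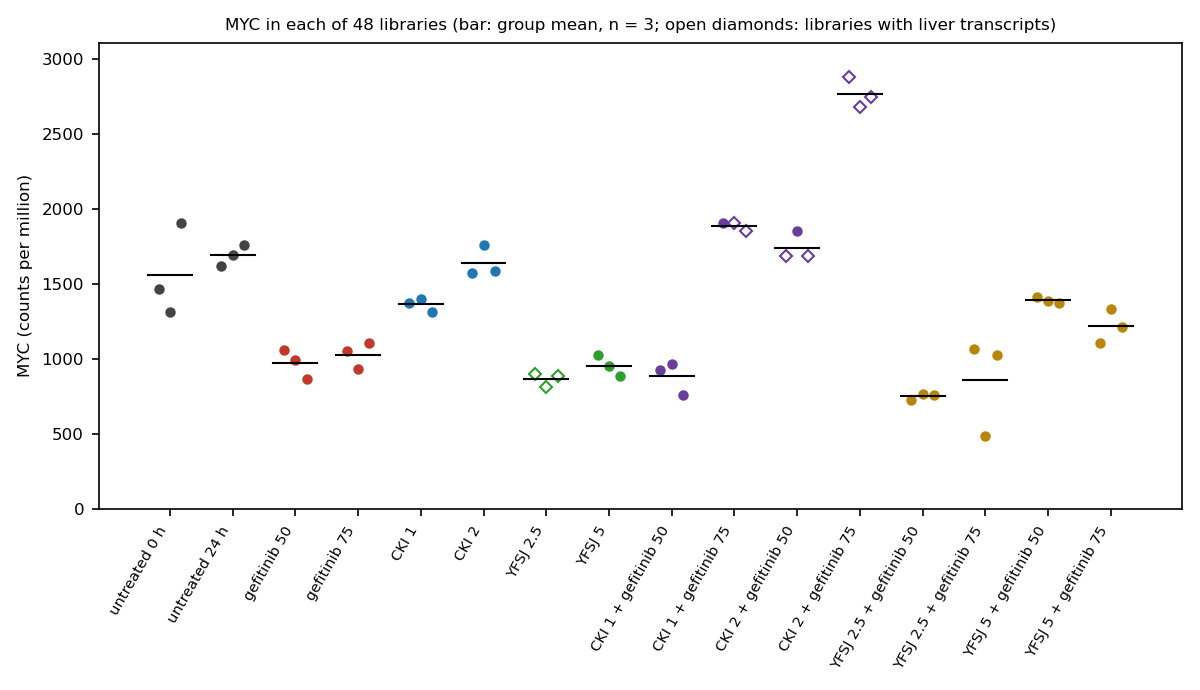
MYC mRNA in CPM (vertical axis, linear, from 0) in each of 48 libraries, by group (doses in µM for gefitinib and mg/mL for CKI and YFSJ). Points are libraries, bars are means of 3, and open diamonds are the 10 libraries with liver transcripts. The 3 libraries of CKI 2 + gefitinib 75 lie between 2676 and 2877, above all others.

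In the fit across all genes (edgeR quasi-likelihood test, Benjamini-Hochberg adjusted, here and below), MYC fell with gefitinib 50 by 0.80 ± 0.14 (log2 fold change ± SE, adjusted p = 9.35e-06). It fell by 0.72 ± 0.14 with gefitinib 75 (adjusted p = 4.65e-05). With YFSJ 2.5 and YFSJ 5 it fell by 0.96 ± 0.14 (adjusted p = 3.03e-05) and 0.83 ± 0.14 (adjusted p = 0.000186). The direct comparison of YFSJ 5 with gefitinib 75 gave -0.11 ± 0.14 (adjusted p = 0.544). CKI 1 gave -0.31 ± 0.14 (adjusted p = 0.104) and CKI 2 -0.04 ± 0.14 (adjusted p = 0.823), neither past the threshold of 0.05. In a fit of only the libraries compared, CKI 1 was called (adjusted p = 0.00912, in a range of 0.00912 to 0.291). The libraries of YFSJ 2.5 all carry the liver transcripts, and a term for those transcripts moved its adjusted p for MYC to 0.0523 at a change of -0.88. YFSJ 5, whose libraries carry none, was called under all 15 alternatives (adjusted p 3.07e-06 to 0.00378).

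Adding CKI to gefitinib raised MYC in 3 of 4 combinations. The increase over gefitinib alone was 0.88 ± 0.14 for CKI 1 on gefitinib 75 (adjusted p = 5.65e-06) and 0.84 ± 0.14 for CKI 2 on gefitinib 50 (adjusted p = 4.62e-06). It was 1.43 ± 0.15 for CKI 2 on gefitinib 75 (adjusted p = 4.26e-11). CKI 1 on gefitinib 50 gave -0.14 ± 0.14 (adjusted p = 0.497). The 3 groups that rose are the combinations with liver transcripts, and in CKI 2 + gefitinib 75 the group and those transcripts cannot be told apart. The libraries free of them were as high, with 1908 CPM in library 1 of CKI 1 + gefitinib 75 and 1852 in library 2 of CKI 2 + gefitinib 50. Without the 10 libraries the changes were 0.89 and 0.94, each resting on 1 library of the combination (adjusted p = 0.00267 and 0.00104).

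MAX, the shared partner of MYC and the repressors, moved least, with 1.29-fold between the highest and the lowest group mean. Untreated cells at 24 h held 74.6, 68.8 and 68.1 CPM, gefitinib 75 76.4, 75.6 and 68.5 and YFSJ 5 64.3, 69.6 and 72.2, all overlapping. CKI 1 held 85.2, 87.4 and 80.4 CPM and CKI 2 86.9, 80.1 and 80.7, above every untreated library. MAX rose with CKI 1 by 0.26 ± 0.07 (adjusted p = 0.00394) and with CKI 2 by 0.23 ± 0.07 (adjusted p = 0.00577). The change was 0.01 ± 0.07 with gefitinib 50 and 0.06 ± 0.07 with gefitinib 75, not past the threshold. Of its 10 calls in 52 comparisons only 2 held in every alternative, against 130 of 171 over all members. These and the counts of alternatives below leave out the stricter threshold (adjusted p under 0.01).

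MXD1, the founding antagonist and a gene of differentiating cells, had its highest levels in the groups with CKI 2. Its mRNA was 13.3, 11.0 and 9.98 CPM in untreated cells at 24 h and 20.9, 18.2 and 20.3 with CKI 1. With CKI 2 it was 44.8, 32.7 and 42.4 CPM, the largest change of any member under a single agent, and no library overlapped those of CKI 1. Gefitinib 75 held 17.5, 17.5 and 17.3 CPM, also above untreated cells, and YFSJ 5 8.85, 12.3 and 10.7, which overlapped them. MXD1 rose by 1.80 ± 0.13 with CKI 2 (adjusted p = 1.07e-15), by 0.79 ± 0.13 with CKI 1 (adjusted p = 5.68e-06) and by 0.61 ± 0.13 with gefitinib 75 (adjusted p = 0.000127). The difference between the 2 CKI doses was 1.01 ± 0.12 (adjusted p = 1.64e-08). Gefitinib on top of CKI 2 gave 34.2, 28.9 and 34.5 CPM at 50 µM and 43.5, 39.5 and 40.9 at 75 µM, ranges that overlap CKI 2 alone.

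MXI1, a second MXD repressor, rose with both gefitinib and CKI. Untreated cells held 30.4, 27.7 and 28.0 CPM at 24 h, gefitinib 50 61.4, 62.5 and 64.1 and gefitinib 75 62.9, 61.5 and 70.0. CKI 1 held 37.1, 37.5 and 37.7 CPM and CKI 2 61.2, 50.2 and 57.7, so that the 2 doses did not overlap and CKI 2 lay just below gefitinib. YFSJ 2.5 held 24.3, 27.3 and 27.8 CPM and YFSJ 5 29.3, 28.2 and 28.8, both overlapping untreated cells. MXI1 rose by 1.17 ± 0.08 with gefitinib 75 (adjusted p = 2.78e-16) and by 0.97 ± 0.08 with CKI 2 (adjusted p = 2.53e-13). Together CKI 2 and gefitinib 75 gave 59.4, 63.0 and 56.2 CPM, overlapping gefitinib 75 alone. Of its 25 calls in 52 comparisons, 24 held in every alternative.

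MXD4, which is expressed in resting and differentiated cells, rose with gefitinib and was not called with either preparation alone. Untreated cells held 123, 123 and 149.9 CPM at 24 h, against 336, 365 and 259 with gefitinib 50 and 325, 292 and 368 with gefitinib 75. CKI 2 held 118, 142 and 106 CPM and YFSJ 5 165, 112 and 136, both overlapping untreated cells. MXD4 rose by 1.28 ± 0.14 with gefitinib 50 (adjusted p = 3.28e-10) and by 1.31 ± 0.14 with gefitinib 75 (adjusted p = 1.67e-10). It was the member most lowered when CKI was added to gefitinib: CKI 2 + gefitinib 75 held 139.6, 174 and 173 CPM, a fall by 1.02 ± 0.14 from gefitinib 75 (adjusted p = 6.49e-08). YFSJ 5 + gefitinib 75 held 238, 274 and 299 CPM, overlapping gefitinib alone.

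MXD4 has the most GC-rich transcript of the 7 (64.0% GC), and its deviation from the group mean followed each library's slope of log2 CPM on transcript GC content with Pearson r = 0.873 over 48 libraries. The values for the other members were 0.775 for MXD3, 0.635 for MNT, 0.548 for MYC, -0.442 for MXI1, -0.518 for MAX and -0.555 for MXD1. These values describe the same 48 libraries, which differ in depth and in that slope. With a correction for GC content, added after seeing the data, the change with gefitinib 75 was 1.13 for MXD4, 0.96 for MNT and -0.82 for MYC, all called.

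MNT, the largest of the antagonists and the most broadly expressed across tissues, rose with every agent except CKI 1. Untreated cells at 24 h were the lowest group, with 42.8, 44.3 and 47.1 CPM. Gefitinib 50 held 93.7, 113 and 82.9 CPM and gefitinib 75 103, 99.5 and 111, while CKI 2 held 62.7, 67.3 and 66.2. YFSJ 2.5 held 66.9, 56.7 and 60.6 CPM and YFSJ 5 67.1, 56.3 and 58.7, all above the untreated libraries at 24 h. MNT rose by 1.22 ± 0.13 with gefitinib 75 (adjusted p = 4.97e-11), by 0.55 ± 0.13 with CKI 2 (adjusted p = 0.000395) and by 0.44 ± 0.13 with YFSJ 5 (adjusted p = 0.0294). The calls with YFSJ, both above the stricter threshold of 0.01, did not hold throughout: 4 of 15 alternatives for YFSJ 5, each of them without 1 library (libraries 1 and 2 of untreated 24 h and 1 and 3 of YFSJ 5), lost it, with adjusted p from 0.0152 to 0.177 over all of them. For YFSJ 2.5 it was lost in 6 of 14 (without any 1 of the untreated 24 h libraries, without library 1 or 3 of YFSJ 2.5, and with the liver transcript term), with adjusted p from 0.0121 to 0.16. Untreated cells at 0 h held 57.1, 42.9 and 73.6 CPM, a wider range than at 24 h.

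MXD3, the member tied to dividing cells rather than to differentiation, fell with gefitinib and CKI, under which other antagonists rose. Untreated cells at 24 h held 31.0, 39.6 and 41.2 CPM, while gefitinib 50 held 17.4, 21.6 and 13.2 and gefitinib 75 18.9, 18.7 and 23.8. CKI 1 held 13.8, 18.1 and 12.4 CPM and CKI 2 14.4, 19.4 and 14.1, below all untreated libraries at 24 h, and YFSJ 5 held 38.3, 28.0 and 27.1, which overlapped them. MXD3 fell by 1.10 ± 0.31 with gefitinib 50 (adjusted p = 0.003), by 1.33 ± 0.31 with CKI 1 (adjusted p = 0.00122) and by 1.21 ± 0.31 with CKI 2 (adjusted p = 0.00132). CKI 2 + gefitinib 75 held 28.2, 37.2 and 45.8 CPM, overlapping untreated cells. The fall with gefitinib 75, 0.86 ± 0.31 (adjusted p = 0.0172), missed the threshold without library 3 of untreated 24 h or without library 1 or 2 of gefitinib 75 (adjusted p 0.0562, 0.0558 and 0.0586, in a range of 1.08e-05 to 0.0586).

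Of the exon bases of MXD3, 22.5% lie opposite exons of PRELID1, a mitochondrial lipid transfer gene, and 926 bases are shared with RAB24 on its own strand. The libraries do not mark strand, so reads of MXD3 and PRELID1 cannot be told apart where they overlap, and MXD3 values are uncertain to that extent. PRELID1 stood at 220 to 323 CPM in untreated cells at 24 h, 159 to 228 with gefitinib and 239 to 348 with YFSJ. It stood at 187 to 308 CPM with CKI and 263 to 348 in untreated cells at 0 h, and its part in the MXD3 values was not tested. Antisense RNAs lie opposite 12.2% of the exon bases of MNT, 4.2% of MAX and 4.4% of MXI1, and MXD1 shares 237 exon bases with SNRNP27 on its strand.

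**Figure D2:**
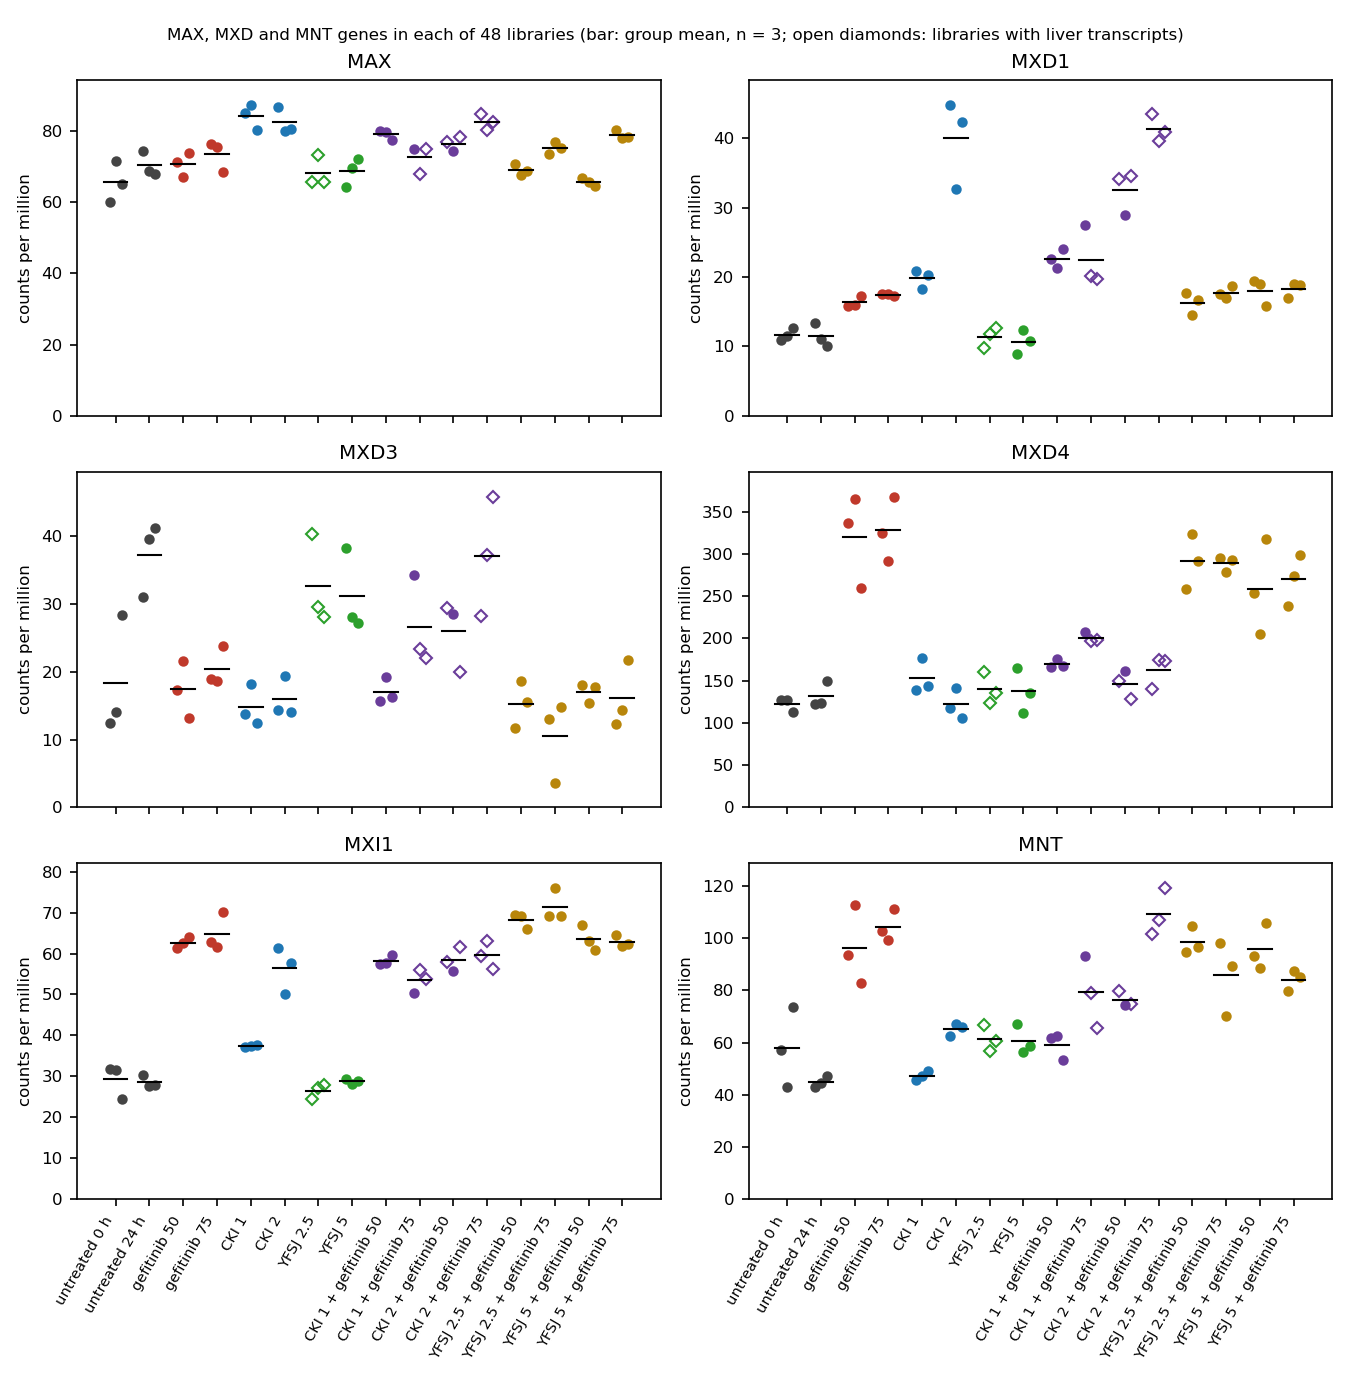
MAX, MXD1, MXD3, MXD4, MXI1 and MNT in CPM (linear vertical axes from 0, scaled for each gene) in each of 48 libraries, by group. Points are libraries, bars are means of 3, and open diamonds are the 10 libraries with liver transcripts. MXD1 is highest in the groups with CKI 2, MXD4 in the gefitinib groups without CKI, and MXI1 and MNT lie above untreated cells at 24 h in every group with gefitinib.

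Taking each agent alone, gefitinib changed 6 of the 7 members at both doses, CKI 4 or 5 of them, and YFSJ 2. With gefitinib 50 and gefitinib 75, MYC and MXD3 fell and MXD1, MXD4, MXI1 and MNT rose, where 54.4% and 54.7% of all genes were called. CKI 1 changed 4 members among 27.9% of genes called, with MAX, MXD1 and MXI1 higher and MXD3 lower. CKI 2 changed 5 among 51.2%, adding MNT to the members that rose. YFSJ 2.5 and YFSJ 5 each changed 2 of the 7, MYC downward and MNT upward, where 2.93% and 6.48% of genes were called. Those shares, 463 and 1023 genes, became 48 and 991 genes with the term for the liver transcripts, which all libraries of YFSJ 2.5 carry. They also depend on single libraries: 158 and 406 were called without library 2 of untreated 24 h. Leaving out library 1 or 3 of YFSJ 2.5 gave 242 and 164, leaving out library 1 or 3 of YFSJ 5 gave 420 and 591, and leaving out library 1 of untreated 24 h gave 264 and 550. For YFSJ 2.5 the count was 261 without library 3 of untreated 24 h and 706 without library 1 of 0 h. Over the 6 comparisons 25 of 42 tests were called, 17 higher and 8 lower. The 6 share the untreated libraries at 24 h, so their values are not independent of each other.

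**Figure D3:**
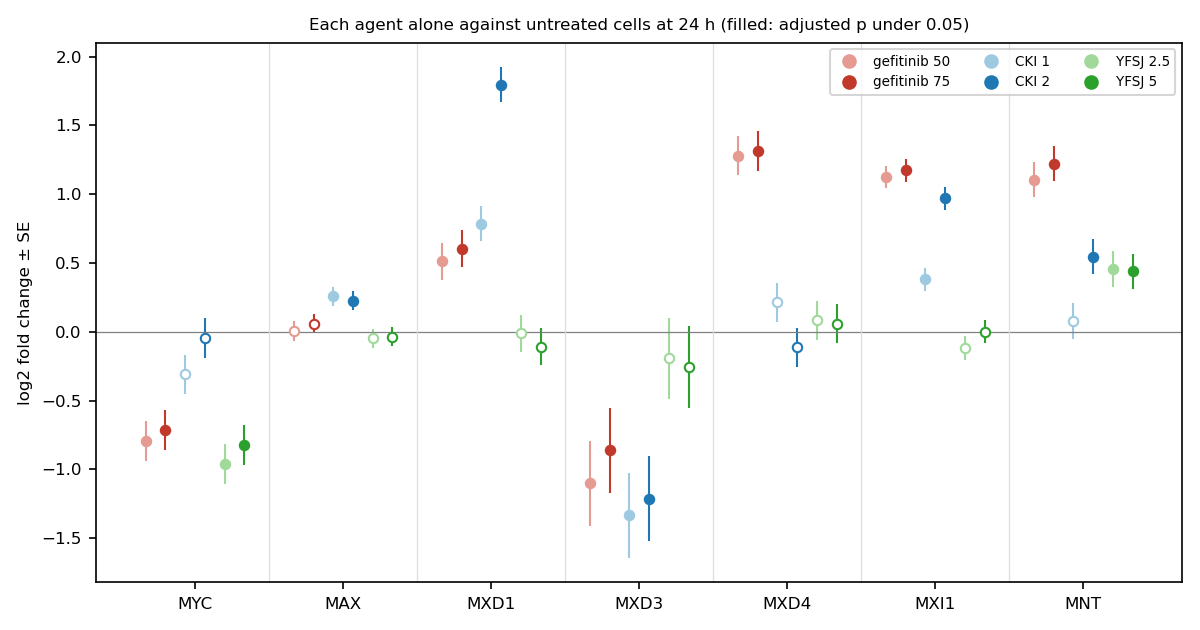
log2 fold change (vertical axis) of each member with each agent alone against untreated cells at 24 h. Bars are ± 1 SE, filled points have adjusted p under 0.05, and the 6 colours are the agents and doses. MYC lies below 0 for gefitinib and YFSJ and near 0 for CKI 2, and MXD4 lies above 1 for gefitinib alone.

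With both agents against untreated cells, 43 of 56 tests were called. MXD1, MXD4, MXI1 and MNT rose and MXD3 fell in each of the 4 YFSJ combinations, the directions they had with gefitinib alone. YFSJ 2.5 + gefitinib 50 and YFSJ 2.5 + gefitinib 75 changed 6 members each, beside 56.6% and 54.1% of all genes, with MYC lower by 1.17 ± 0.15 and 0.97 ± 0.14. The second value includes library 2 of that group, at 490.0 CPM beside 1067 and 1026. YFSJ 5 + gefitinib 50 changed 5 members beside 54.1% of genes and YFSJ 5 + gefitinib 75 all 7 beside 52.5%. There MYC stood at -0.28 ± 0.14 (adjusted p = 0.0959) and -0.47 ± 0.14 (adjusted p = 0.00523). The value for YFSJ 5 + gefitinib 50 was called with the GC correction and with only the libraries compared (adjusted p 0.00566 to 0.48 over its alternatives). The MAX call with YFSJ 5 + gefitinib 75, a change of 0.16, was lost in 11 of 15 alternatives, among them the liver transcript term (0.0505) and the fit without the 10 libraries (0.126), in a range of 0.00244 to 0.177.

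In all 4 CKI combinations MXD1, MXI1 and MNT rose, whereas MYC fell in 1 of them and rose in another. CKI 1 + gefitinib 50 changed all 7 members beside 54.9% of genes, with MYC lower by 0.93 ± 0.14. CKI 1 + gefitinib 75 changed 4 members beside 59.8%, and CKI 2 + gefitinib 50 changed 3 beside 58.1%. In those groups MYC gave 0.16 ± 0.14 and 0.04 ± 0.14. CKI 2 + gefitinib 75 changed 5 members, all upward, beside 62.1% of genes: MYC by 0.71 ± 0.14, MAX by 0.23 ± 0.07, MXD1 by 1.85 ± 0.13, MXI1 by 1.05 ± 0.08 and MNT by 1.29 ± 0.13. There the MAX call was lost with the liver transcript term (adjusted p = 0.0561, in a range of 7.11e-05 to 0.0561). With CKI 1 + gefitinib 50 the MAX value of 0.17 lost its call in 8 of 15 alternatives, among them the fit without the 10 libraries (adjusted p = 0.0967, range 2.52e-05 to 0.141). The MXD4 value of 0.36 in that group lost its call without library 1 or 2 of untreated 24 h or library 2 of the combination (range 5.71e-05 to 0.102).

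Measured against gefitinib at the same dose, CKI changed 3 to 5 of the 7 members in each of 4 combinations, and no member was called with YFSJ in 4. With CKI 1, 3 members were called on gefitinib 50 and 5 on gefitinib 75, beside 31.8% and 34.6% of all genes. With CKI 2, 4 members were called on gefitinib 50 and 5 on gefitinib 75, beside 53.6% and 58.2%. In all 4, MXD4 fell (0.92, 0.71, 1.13 and 1.02 on the log2 scale, in that order) and MXD1 rose (0.47, 0.37, 0.99 and 1.24). MNT was called lower in 3 of the 4 and gave 0.06 ± 0.12 with CKI 2 on gefitinib 75, but 2 of these 3 calls did not hold throughout. With CKI 1 on gefitinib 75 its value of -0.40 became -0.17 without the 10 libraries with liver transcripts (adjusted p = 0.547, in a range of 0.00164 to 0.547). That call was also lost with library size alone (0.075), with the liver transcript term (0.142) and without library 3 of either group. With CKI 2 on gefitinib 50 its value of -0.34 lost the call in 7 of 15 alternatives, in a range of adjusted p from 0.00665 to 0.238. These were library size alone (0.137), the liver transcript term (0.238), the fit without the 10 libraries (0.126), the GC correction (0.0705), and leaving out library 2 of gefitinib 50 or library 2 or 3 of the combination. MXI1 fell by 0.28 ± 0.08 with CKI 1 on gefitinib 75 and was not called in the other 3, and that call was lost with library size alone and without library 3 of gefitinib 75 (adjusted p 0.00126 to 0.086). MXD3 rose by 0.86 ± 0.31 with CKI 2 on gefitinib 75 (adjusted p = 0.0166), a call lost without library 1 or 2 of gefitinib 75 or library 3 of the combination (range 6.82e-05 to 0.0901). The MXD1 call with CKI 1 on gefitinib 75 was lost without library 3 of gefitinib 75 and without library 1 of the combination, where it gave 0.19 (range 0.00269 to 0.301). MAX was called with CKI 2 on gefitinib 75 at 0.17, a call lost in 5 of 14 alternatives, among them the liver transcript term (adjusted p = 0.174, range 0.00526 to 0.197).

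The 4 YFSJ additions moved few genes of any kind, 0.0887% and 1.83% of all genes with YFSJ 2.5 on gefitinib 50 and 75, and 0.937% and 3.46% with YFSJ 5. Leaving out 1 library moved these counts, 14, 289, 148 and 546 genes in that order, to between 5 (without library 1 of gefitinib 50) and 59 (library 3 of YFSJ 5 + gefitinib 50), 29 (library 3 of gefitinib 75) and 1065 (library 3 of YFSJ 2.5 + gefitinib 75), 8 and 682 (libraries 1 and 3 of YFSJ 5 + gefitinib 50), and 287 (library 3 of gefitinib 75) and 687 (library 3 of untreated 0 h). With only the libraries compared, the counts over all genes were 27, 0, 0 and 1085. At an unadjusted p under 0.05 edgeR counted 1 and 2 members with YFSJ 2.5 and 2 and 1 with YFSJ 5, in the same order, and DESeq2 called 1, MYC with YFSJ 5 on gefitinib 50. MYC, which fell with either agent alone, gave -0.37 ± 0.14 and -0.26 ± 0.14 with YFSJ 2.5, the second including library 2 of that combination at 490.0 CPM. With YFSJ 5 it gave 0.51 ± 0.14 (adjusted p = 0.0667) and 0.24 ± 0.14. The value on gefitinib 50 passed the threshold with DESeq2 (adjusted p = 0.0352) and with the GC correction (0.0346), in a range of 0.0346 to 0.371 over 15 alternatives. Across CKI and YFSJ together, 17 of 56 tests were called, 9 higher and 8 lower.

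Seen from the other side, gefitinib added to a preparation changed 5 to 7 of the 7 members on YFSJ and 0 to 6 on CKI. On YFSJ 2.5, gefitinib 50 and 75 each changed 5 members, beside 53.9% and 51.5% of all genes. On YFSJ 5 they changed 6 and 7, beside 52.9% and 51.4%. MXI1 rose there by 1.13 to 1.43 and MXD4 by 0.91 to 1.06. MYC rose with gefitinib on YFSJ 5, by 0.54 ± 0.14 at 50 µM (adjusted p = 0.00147) and by 0.35 ± 0.14 at 75 µM (adjusted p = 0.0379). The second call was lost in 6 of 15 alternatives, among them leaving out library 2 or 3 of either group, with adjusted p from 0.00453 to 0.147, and the value without the 10 libraries with liver transcripts was 0.33 (adjusted p = 0.0909). MAX at 75 µM on YFSJ 5, with 0.20, was also lost without them (adjusted p = 0.0503, range 0.000833 to 0.105). The MXD3 calls on YFSJ 5, -0.87 and -0.95, were each lost without library 1 of YFSJ 5 and without 1 library of the combination, library 2 at 50 µM and library 1 at 75 µM (adjusted p up to 0.0906 and 0.0649). On YFSJ 2.5 the liver transcript term ended the calls of MXD1 at 50 µM (0.40, adjusted p = 0.0823, range 7.71e-06 to 0.0823) and of MNT at 75 µM (0.32, adjusted p = 0.172, range 0.000103 to 0.172).

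On YFSJ 2.5, MYC gave -0.21 ± 0.14 with gefitinib 50 and -0.01 ± 0.14 with gefitinib 75. The latter became 0.27 (adjusted p = 0.0328) without library 2 of YFSJ 2.5 + gefitinib 75, in a range of adjusted p from 0.0328 to 1. On CKI 1, gefitinib 50 changed 3 members and gefitinib 75 changed 6, beside 39% and 47.7% of genes. MYC fell there by 0.62 ± 0.14 with gefitinib 50 and rose by 0.47 ± 0.14 with gefitinib 75. On CKI 2, gefitinib 50 called no member, beside 11.1% of genes (2 at an unadjusted p under 0.05 in edgeR, 0 by DESeq2), and gefitinib 75 changed 4, beside 30.1%. These were MYC (0.75 ± 0.14), MXD3 (1.21 ± 0.31), MXD4 (0.41 ± 0.14) and MNT (0.74 ± 0.13), all higher. The MXD4 call was lost in 5 alternatives, 4 of them without 1 library (1 or 3 of CKI 2, 2 or 3 of the combination) and the other with the liver transcript term, with adjusted p up to 0.146. The rise of MYC on CKI 1 was 0.46 without the libraries with liver transcripts (adjusted p = 0.104, range 2.92e-05 to 0.104). Without them MXD4 and MAX with gefitinib 75 on CKI 1 lost their calls too, at 0.41 (adjusted p = 0.101, range 0.000338 to 0.101) and -0.19 (adjusted p = 0.156, range 0.00316 to 0.275). So did MNT with gefitinib 50 on CKI 1, at 0.31 (adjusted p = 0.0573, range 0.00188 to 0.125), 1 of 7 losses in 15 alternatives. The MXD3 rise with gefitinib 75 on CKI 1, 0.85, was lost without library 1 or 3 of CKI 1 or library 1 of the combination (range 0.0004 to 0.145). Over the 8 comparisons 36 of 56 tests were called, 30 higher and 6 lower.

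**Figure D4:**
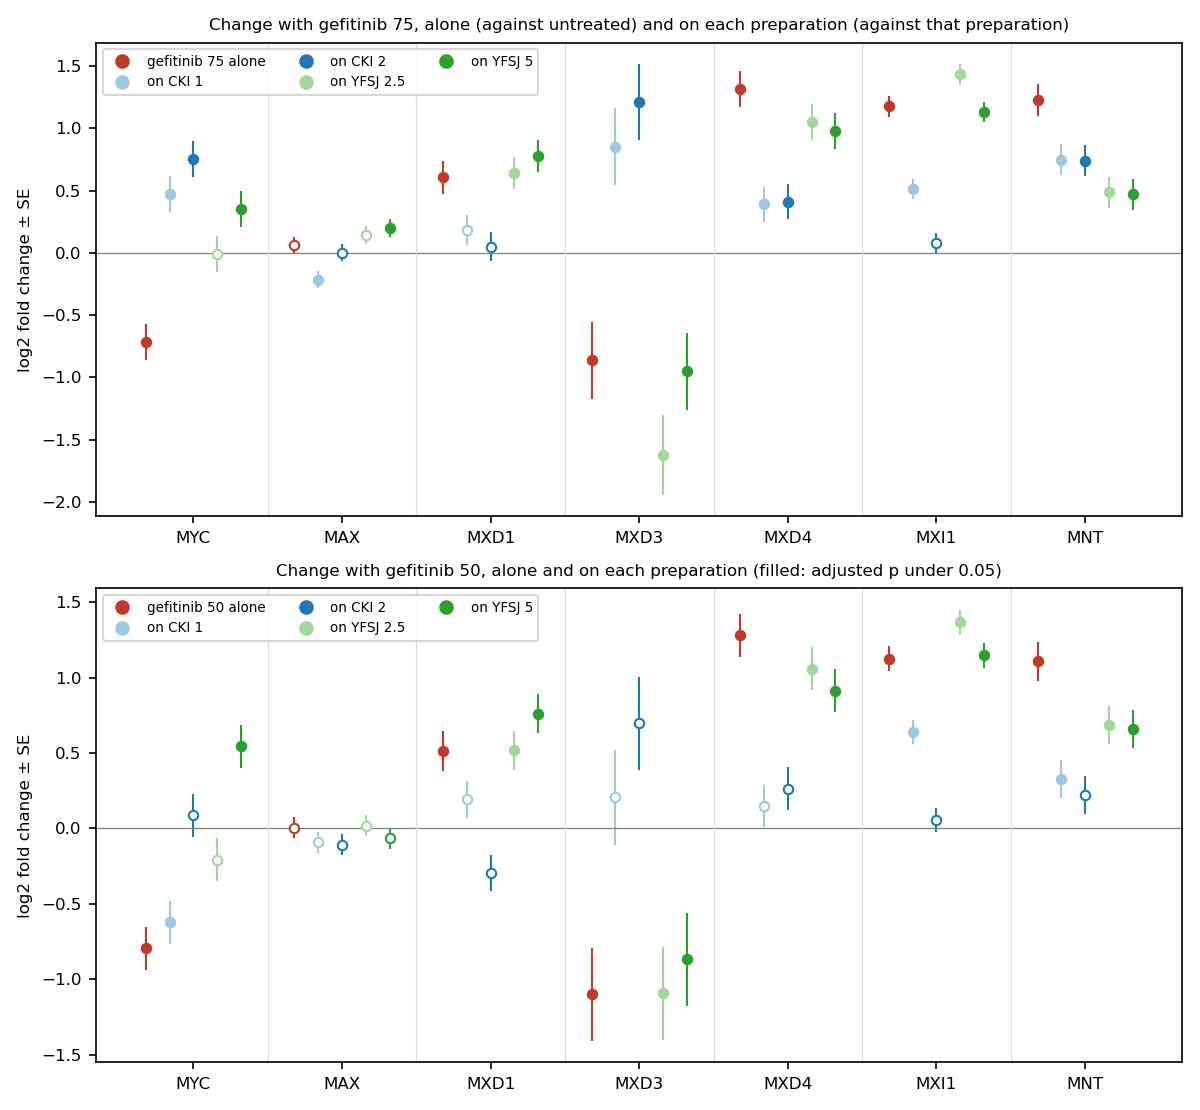
log2 fold change (vertical axis) of each member with gefitinib 75 (upper panel) and gefitinib 50 (lower panel), alone against untreated cells at 24 h and on each dose of CKI or YFSJ against that dose. Bars are ± 1 SE and filled points have adjusted p under 0.05. MYC lies below 0 for gefitinib alone and above 0 for gefitinib 75 on CKI 1, CKI 2 and YFSJ 5.

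Between doses of 1 agent alone, members were called with CKI only. Gefitinib 75 against gefitinib 50 called no member and 0.0317% of genes, and YFSJ 5 against YFSJ 2.5 no member and 0.374%, with 0 members at an unadjusted p under 0.05 in edgeR and 0 by DESeq2 in both. CKI 2 against CKI 1 changed 3 members beside 32.7% of genes, MXD1 by 1.01, MXI1 by 0.59 and MNT by 0.47. Beside CKI the gefitinib dose changed MYC and MNT. On CKI 1, where 11% of genes were called, MYC rose by 1.09 ± 0.15 from 50 to 75 µM (adjusted p = 5.37e-06) and MNT by 0.42 ± 0.13. On CKI 2, where 1.56% of genes were called, MYC rose by 0.67 ± 0.14 (adjusted p = 0.01) and MNT by 0.52 ± 0.12. The MYC call on CKI 2 was lost without library 3 of CKI 2 + gefitinib 50 (adjusted p = 0.0821, over a range of 0.00026 to 0.0821). Both MNT calls were lost in 5 alternatives each (adjusted p up to 0.22 on CKI 1 and 0.179 on CKI 2), the value on CKI 1 being 0.20 with the GC correction.

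Raising CKI from 1 to 2 mg/mL changed 3 members beside gefitinib 50, where 38% of genes were called, and 4 beside gefitinib 75, where 38.4% were. MYC rose by 0.98 ± 0.14 and 0.55 ± 0.14, and MXD1 by 0.52 ± 0.12 and 0.88 ± 0.12. Beside gefitinib 50, MXD1 and MNT lost their calls without the 10 libraries with liver transcripts, at 0.36 (adjusted p = 0.124, range 1.21e-05 to 0.124) and 0.33 (adjusted p = 0.197, range 0.000458 to 0.197). The MAX call beside gefitinib 75, 0.18, was lost in 6 of 14 alternatives (range 0.00671 to 0.179). Raising YFSJ beside gefitinib 50 changed 1 member, MYC, by 0.89 ± 0.14 (adjusted p = 0.000652), in a comparison with 13 genes called of 15789, or 0.0823%. Beside gefitinib 75 the same step gave 0.50 ± 0.14 for MYC (0.22 without library 2 of YFSJ 2.5 + gefitinib 75) and called 0% of genes and no member, with 2 members at an unadjusted p under 0.05 in edgeR and 0 by DESeq2. The gefitinib dose called no member beside YFSJ 2.5 or YFSJ 5, with 0.00633% and 0.12% of genes called. At an unadjusted p under 0.05 edgeR counted 0 and 1 members there, the 1 being MAX, which DESeq2 called. All 15 calls among the 77 dose tests were toward higher mRNA at the higher dose, in comparisons that share groups. Over all genes, raising CKI gave 2389 higher and 2773 lower alone. It gave 3060 and 2943 beside gefitinib 50, and 3057 and 3011 beside gefitinib 75. Raising gefitinib gave 898 higher and 845 lower on CKI 1, and 148 and 99 on CKI 2. Raising YFSJ beside gefitinib 50 gave 12 higher and 1 lower.

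An interaction, here the change with both agents minus the sum of the changes with each, averaged over 4 dose pairs, was found for 6 of 7 members with CKI, where 39.5% of all genes had one. MYC departed upward by 0.93 ± 0.15 (adjusted p = 2.81e-06) and MXD3 by 1.72 ± 0.32 (adjusted p = 5.11e-05). MXD1, MXD4, MXI1 and MNT, which gefitinib raises, departed downward by 0.53 ± 0.14, 0.99 ± 0.15, 0.83 ± 0.09 and 0.66 ± 0.14. With YFSJ, 2 members had an interaction, beside 1.7% of genes: MYC upward by 0.93 ± 0.15 (adjusted p = 0.000202) and MNT downward by 0.59 ± 0.14 (adjusted p = 0.014). The MNT interaction was lost without library 1 or 2 of untreated 24 h (adjusted p 0.0729 and 0.0673, over a range of 0.00265 to 0.0729), and the other 7 were called in every alternative that could be run.

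At single dose pairs the MYC interaction with CKI was 0.17 ± 0.20 at CKI 1 + gefitinib 50, 1.19 ± 0.20 at CKI 1 + gefitinib 75, 0.88 ± 0.20 at CKI 2 + gefitinib 50 and 1.47 ± 0.20 at CKI 2 + gefitinib 75. MXD4 departed downward at all 4, by 0.90 to 1.13. Members called numbered 4, 5, 6 and 6 in that order, beside 17.7%, 20.9%, 35.9% and 40.3% of genes. At CKI 2 + gefitinib 75, where all 3 libraries carry the liver transcripts, the term for them ended the calls of MXD1 (-0.44, adjusted p = 0.127, range 0.00084 to 0.127) and MNT (-0.32, adjusted p = 0.288, range 0.00244 to 0.288). The MAX interaction at CKI 1 + gefitinib 75, -0.27, was lost in 13 of 21 alternatives, that term and the fit without the 10 libraries among them (range 0.0206 to 0.263). The MXD3 interaction at CKI 1 + gefitinib 50, 1.31, was lost in 9 of 21, of which 8 leave out 1 library (range 0.000581 to 0.0853). With YFSJ the MYC interaction was 0.59 ± 0.20 and 0.71 ± 0.20 at 2.5 mg/mL, on gefitinib 50 and 75, and 1.34 ± 0.20 and 1.07 ± 0.20 at 5 mg/mL. The value of 0.71 includes library 2 of YFSJ 2.5 + gefitinib 75, at 490.0 CPM of MYC. Members called numbered 0, 1, 1 and 2, beside 0.057%, 0.431%, 0.45% and 1.38% of genes. The MNT calls among them were lost in 14 of 20 alternatives at YFSJ 2.5 + gefitinib 75, the liver transcript term included (range 0.0146 to 0.18), and in 5 of 21 at YFSJ 5 + gefitinib 75, each without 1 library (range 0.00161 to 0.0912). The pair with 0 had 3 members at an unadjusted p under 0.05 in edgeR and 0 by DESeq2.

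Untreated cells differed between 24 h and 0 h in 2 of 7 members, MXD3 and MNT, beside 25.2% of all genes. MXD3 stood at 12.4, 14.0 and 28.4 CPM at 0 h, lower than at 24 h in all 3 libraries, a difference of 1.01 ± 0.31 (adjusted p = 0.0152). MNT fell by 0.37 ± 0.13 from 0 h to 24 h (adjusted p = 0.0284), and its ranges at the 2 times overlap. MYC gave 0.11 ± 0.14. Both calls rest on the libraries of 0 h: with library 3 of 0 h alone, whose RNR2 share of 0.457% lies beside 0.464% to 0.582% at 24 h, MXD3 gave 0.37 (adjusted p = 0.876), and without that library MNT gave -0.16 (adjusted p = 0.347).

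To set MYC against its antagonists on a scale per length, CPM was divided by the length of the longest coding GENCODE v29 transcript, and MYC was divided by the sum of MXD1, MXD3, MXD4, MXI1 and MNT. This ratio of mRNA levels was 10.5 ± 0.447 (mean ± SD, n = 3) in untreated cells at 24 h and 10.9 ± 1.45 at 0 h. It was 3.26 ± 0.282 with gefitinib 50 and 3.28 ± 0.119 with gefitinib 75, the lowest of the single agents. YFSJ 2.5 and YFSJ 5 gave 5.20 ± 0.37 and 5.81 ± 0.625, while CKI 1 and CKI 2 gave 8.50 ± 0.607 and 9.41 ± 0.323. The summed antagonists were 133 CPM per kb with gefitinib 75 and 69.9 with YFSJ 5, beside 68.2 in untreated cells at 24 h. CKI 2 + gefitinib 75 gave 11.5 ± 1.51 and YFSJ 2.5 + gefitinib 50, the lowest group, 2.64 ± 0.155. Per length, MXD4 was the most abundant antagonist in untreated cells at 24 h (32.5 CPM per kb), ahead of MXD3 (16.4), MNT (8.96), MXI1 (8.27) and MXD1 (2.05), and MYC stood at 714.

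Of the other 6 genes of the dimerisation network 5 were measured, since MYCN had at most 3 counts in any library. MYCL, the MYC relative of lung and neuroendocrine cells, was low in untreated cells at 3.30 ± 0.657 CPM and reached 10.4 ± 0.893 with CKI 2 and 13.3 ± 0.403 with CKI 2 + gefitinib 75. It rose with CKI 2 by 1.67 ± 0.15 (adjusted p = 6.59e-13), in a group where MYC was not called. MLXIPL, the glucose-responsive partner of MLX known as ChREBP, went from 6.25 ± 0.45 CPM to 21.1 ± 1.26 with gefitinib 75 and 18.8 ± 2.24 with CKI 2, rising by 1.76 ± 0.33 and 1.60 ± 0.33. With gefitinib 75, MLXIP (MondoA) rose by 0.43 ± 0.10 and MLX, which dimerises with both, changed by -0.34 ± 0.07, also called. MGA, a MAX partner with a second DNA-binding domain, gave -0.18 ± 0.14 with gefitinib 75, 0.18 ± 0.14 with CKI 2 and 0.15 ± 0.14 with YFSJ 5, none of them called.

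Among 15 measured genes of the SIN3 and histone deacetylase complex that MXD proteins recruit, gefitinib 75 lowered 10 and raised 1 (median -0.41), while over all genes 27.6% were higher and 27.1% lower. SAP30 changed by -0.89 ± 0.11, the deacetylase HDAC2 by -0.74 ± 0.11 and the histone chaperone RBBP7 by -0.60 ± 0.07. CKI 2 lowered 5 and raised 3, with RBBP4 at -1.04 ± 0.10 and HDAC1 at -0.81 ± 0.07. YFSJ 5 lowered 3 and raised 0. Over all genes CKI 2 raised 24.1% and lowered 27.1%, and YFSJ 5 raised 4.28% and lowered 2.2%. Of 14 cofactors of MYC, gefitinib 75 raised 1 and lowered 4, among them ACTL6A (-0.98 ± 0.07) and RUVBL1 (-0.70 ± 0.07), subunits of chromatin remodelling complexes. CKI 2 raised 2 and lowered 7 of them, with RUVBL1 at -0.65 ± 0.07. The 5 of 14 called with gefitinib 75 stand beside 54.7% of all genes, and the 9 of 14 with CKI 2 beside 51.2%.

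Of 17 genes that set the stability of the MYC protein, gefitinib 75 raised 3 and lowered 7, CKI 2 raised 5 and lowered 6, and YFSJ 5 raised 1 and lowered 1. The 10, 11 and 2 of 17 called stand beside 54.7%, 51.2% and 6.48% of all genes, so that the number called was near the background with gefitinib 75. The 3 with the smallest p with gefitinib 75 were AURKA, a mitotic kinase that protects MYC proteins from degradation (-2.24 ± 0.09), CIP2A, which restrains the phosphatase that acts on MYC (-2.22 ± 0.13), and SKP2, a ubiquitin ligase subunit (-1.44 ± 0.10). With CKI 2, AURKA gave -1.35 ± 0.08 and SKP2 -1.01 ± 0.09, whereas the deubiquitinase USP36 rose by 0.99 ± 0.09. USP36 also rose with YFSJ 5, by 0.34 ± 0.09, and the kinase PIM1 gave -0.36 ± 0.10. No protein was measured.

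Genes known as MYC targets were mostly lower with gefitinib, where MYC fell, and mostly not called with YFSJ, where MYC also fell. Of 33 nucleolar and ribosome assembly genes that MYC induces, 32 were lower and 0 higher with gefitinib 75 (median -0.86, beside 0.02 over all genes, of which 27.1% were lower). YFSJ 5, under which MYC fell by 0.83, called 0 lower and 1 higher (median 0.01, with 2.2% of all genes lower), and YFSJ 2.5 called none in either direction (median -0.07). CKI 2, under which MYC was not called, lowered 22 and raised 2 (median -0.36), beside 51.2% of all genes called. CKI 2 + gefitinib 75, with the most MYC mRNA of all groups, lowered 23 and raised 3 (median -0.39), beside 62.1% of all genes called. Examples with gefitinib 75 are PA2G4, a growth regulator bound to ribosome precursors (-1.30 ± 0.09), the box C/D protein NOP56 (-0.99 ± 0.07) and the treacle gene TCOF1 (-1.68 ± 0.14). With YFSJ 5 the same genes gave -0.13 ± 0.09, 0.05 ± 0.07 and 0.13 ± 0.13.

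Of 33 MYC-induced genes of metabolism, translation and growth, gefitinib 75 lowered 23 and raised 5 (median -0.68), CKI 2 lowered 19 and raised 6 (median -0.39), and YFSJ 5 lowered 2 and raised 6 (median 0.05). Over all genes 27.1% were lower and 27.6% higher with gefitinib 75, 27.1% and 24.1% with CKI 2, and 2.2% and 4.28% with YFSJ 5. With gefitinib 75, thymidylate synthase TYMS gave -3.16 ± 0.18, the cell cycle phosphatase CDC25A -2.28 ± 0.11 and ornithine decarboxylase ODC1 -1.23 ± 0.08. CKI 2 lowered the glycolytic genes LDHA (-1.16 ± 0.10) and PKM (-0.98 ± 0.09). With YFSJ 5, the 3 of smallest p all rose: the amino acid transporter SLC7A5 (0.91 ± 0.13), the pyrimidine synthesis gene CAD (0.53 ± 0.13) and the glucose transporter SLC2A1 (0.34 ± 0.08). EIF4A1, listed among these genes, has 0 counts in every library and was not tested.

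Of 22 genes that MYC is known to repress, gefitinib 75 raised 11 and lowered 5 (median 0.46), CKI 2 raised 11 and lowered 7 (median 0.40), and YFSJ 5 raised 2 and lowered 3 (median -0.09). The shares of all genes raised were 27.6%, 24.1% and 4.28% in these 3 comparisons, and of those lowered 27.1%, 27.1% and 2.2%. The cell cycle inhibitor CDKN1A rose by 2.28 ± 0.08 with gefitinib 75 and 2.20 ± 0.08 with CKI 2, and the stress gene NDRG1 by 1.86 ± 0.08 and 1.44 ± 0.08. CDKN2C, another inhibitor, went the other way, with -1.59 ± 0.11 and -1.42 ± 0.11. NDRG1 rose with YFSJ 5 too, by 0.68 ± 0.08, while the phosphatase gene DUSP1 changed by -1.56 ± 0.13 and CDKN2B by -0.59 ± 0.09.

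**Figure D5:**
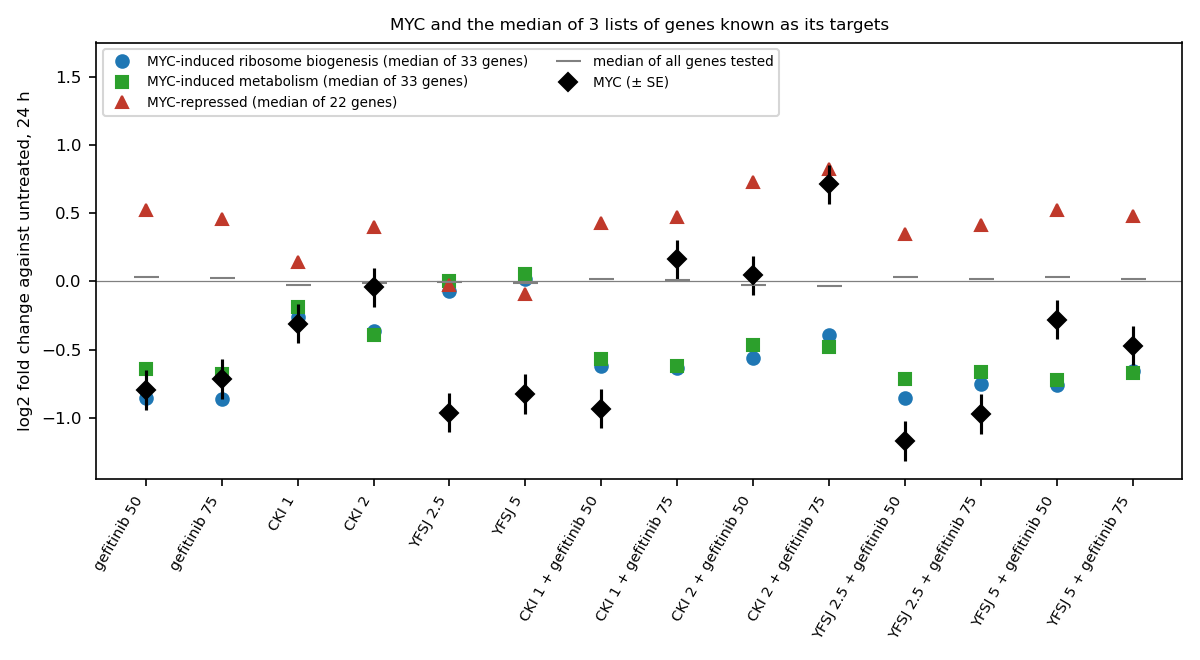
log2 fold change against untreated cells at 24 h (vertical axis) of MYC (black diamonds, ± 1 SE) and the median over 3 lists of genes known as its targets (33, 33 and 22 genes), for the 14 treated groups. Grey dashes are the median of all genes tested. In both YFSJ groups MYC lies near -0.8 or lower while the 3 medians lie near 0.

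Set directly against each other, in a comparison chosen after these values were seen, YFSJ 5 and gefitinib 75 differed in 4 of 7 members beside 54.1% of all genes, though MYC was not called. MXD4 was lower with YFSJ 5 by 1.26 ± 0.14, MXI1 by 1.17 ± 0.08, MNT by 0.78 ± 0.13 and MXD1 by 0.71 ± 0.13. All 33 ribosome assembly genes were higher with YFSJ 5 (median 0.88), as were 27 of 33 metabolic targets, against 4 lower (median 0.74). Of the repressed genes 16 of 22 were lower and 2 higher (median -0.70). Over all 15789 genes, 4232 were higher and 4308 lower. The list counts restate the changes of each agent against untreated cells given above and are not separate evidence.

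Adding CKI 2 to gefitinib 75, which raised MYC by 1.43, raised 23 of the 33 ribosome assembly genes and lowered 2 (median 0.46), with 28.8% of all genes higher. CKI 1 on gefitinib 50, where MYC was not called, raised 12 and lowered 0 (median 0.14), beside 31.8% of all genes called (2453 of 15789 higher). The CKI interaction was called for 30 of these 33 genes, all upward (median 0.60), beside 39.5% of all genes (3158 of 15789 upward). The YFSJ interaction was called for 1 of them (median 0.08), beside 1.7% of all genes. MYC had an interaction of 0.93 in the former and 0.93 in the latter.

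Across the 16 group means of log2 CPM, MXD4, MXI1 and MNT ran together (Pearson r = 0.728 for MXD4 and MXI1, 0.748 for MXD4 and MNT, 0.782 for MXI1 and MNT). MYC stood at -0.447 with MXD4 and 0.467 with MXD3, and MAX and MXD1 at 0.747. Among 11146 genes whose mean level reached 5 CPM, those most like MYC over the 16 groups were DUSP1 (r = 0.905), HES1 (0.851) and GS1-124K5.11 (0.844). DUSP1 is the early response phosphatase gene that fell with YFSJ 5, and HES1 is a Notch target. The genes most like MXD4 were DYRK1B (r = 0.985), CUX1 (0.98) and RRAS (0.98), those most like MXI1 included FNIP2 (r = 0.988) and RRAGC (0.983), and those most like MNT FBXO10 (r = 0.941), CIC (0.937) and MBD6 (0.935). For MXD1 they were AMMECR1L (r = 0.973), DNAJB9 (0.969) and RMC1 (0.964), for MXD3 MNX1 (r = 0.921), KREMEN2 (0.893) and TRAF2 (0.887) and for MAX ERICH1 (r = 0.858), TMEM68 (0.829) and SDF2 (0.826). These values describe 16 groups that share agents and libraries.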

How the data were processed

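RNA from 48 H1975 libraries (16 groups of 3) was sequenced as paired ends without strand marking, per the labels' protocols. The submitters' processing notes name Trim Galore 0.4.2, STAR 2.5.3a, edgeR with no version and hg19 as the build. Which tool counted the reads, with which gene annotation and strand setting, is not given in the sources used here. The authors deposited raw counts per gene symbol, as whole numbers, for 27978 symbols, of which 4194 are 0 in every library. All 48 columns were matched to samples by title.

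Counts were tested as deposited with edgeR 4.0.16 (R 4.3.3, limma 3.58.1): TMM scaling, genes kept by filterByExpr (min.count 10, min.total.count 15), a robust quasi-likelihood fit of all 48 libraries with 1 mean per group (32 residual degrees of freedom), and Benjamini-Hochberg adjustment over 15789 genes. The 15789 genes hold 99.97% of counts. A call is an adjusted p under 0.05, all tests are two-sided, and the SE is the log2 fold change divided by the square root of F. Fold changes are on edgeR's log2 scale, and CPM is scaled by TMM. Limits from counts cover counting error only. The replicates come from 1 line, and p-values measure the spread between these libraries.

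The members, the 7 gene lists and the tests were chosen with earlier results of these data known. List genes are named by the 3 smallest p values in gefitinib 75, CKI 2 and YFSJ 5 against untreated cells, and likeness by the 3 highest correlations among genes of at least 5 CPM. A gene that these rules select may not be reported here. Transcript lengths and overlaps come from GENCODE v29 (GRCh38) and promoters from RefSeq, matched by symbol, so no coordinate of hg19 is used. On simulated counts for gefitinib 75 against untreated cells (15460 genes), 92 of 100 genes changed 2-fold and 67 of 100 changed 1.5-fold were recovered, with 7 false among 166 calls. Only those genes were changed in the simulation, whereas 54.7% of all genes were called in the data. These rates therefore need not hold for the data. Alternatives were other scalings, DESeq2 1.42.0, no filter, a replicate block, a stricter threshold, only the libraries compared, terms for or removal of the libraries with liver transcripts, and leaving out each library. A GC correction was chosen after seeing the data (GC content was known for 96.2% of tested genes).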

Additional observations from a re-analysis of the deposited data

Results flagged for a closer look

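The effect of gefitinib differed between cells with and without CKI for 6 members, by the interaction averaged over 4 dose pairs in the edgeR fit. The values were 0.93 ± 0.15 (adjusted p = 2.81e-06) for MYC, 1.72 ± 0.32 (adjusted p = 5.11e-05) for MXD3 and -0.99 ± 0.15 (adjusted p = 8.86e-07) for MXD4. They were -0.83 ± 0.09 (adjusted p = 1.37e-10) for MXI1, -0.66 ± 0.14 (adjusted p = 0.000125) for MNT and -0.53 ± 0.14 (adjusted p = 0.00179) for MXD1. For MYC the change with gefitinib 75 went from -0.72 alone to 0.75 on CKI 2, and for MXI1 from 1.17 to 0.08. Of the 12 libraries with both CKI and gefitinib, 7 carry liver transcripts, whose part in these interactions was not tested beyond the term given with the alternatives.

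The effect of gefitinib also differed between cells with and without YFSJ for 2 members. MYC gave 0.93 ± 0.15 (adjusted p = 0.000202) and MNT -0.59 ± 0.14 (adjusted p = 0.014). The MNT call was lost without library 1 or 2 of untreated 24 h. All 3 libraries of YFSJ 2.5 alone carry liver transcripts. With the term for them, the genes with a YFSJ interaction went from 268 to 168.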

How the results depend on the processing

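Of 171 member calls in 364 tests, 130 held in every alternative that could be run, the stricter threshold counted apart, and no called value changed sign. Of 193 tests not called, 153 were not called in any alternative. MXI1 kept 24 of 25 calls and MYC 25 of 29, but MAX 2 of 10. The comparison of untreated 24 h with 0 h, with 2 members called, gave 1 with library size alone, 0 with only the libraries compared and 0 at adjusted p under 0.01. The second of these holds fewer libraries and the last has a stricter threshold. For library size alone the cause was not tested. The fit with only library 3 of 0 h leaves 1 library in that group and is not counted here. The other 7 families stayed within 1.5 times of their counts under each alternative. Leaving out each of 48 libraries gave 23 to 26 calls for single agents, 40 to 44 for both agents, 13 to 18 for a preparation added, 33 to 37 for gefitinib added, 13 to 16 for dose, 7 to 8 for interactions, 21 to 27 at single dose pairs and 0 to 2 for 24 h against 0 h. MYC in YFSJ 2.5 + gefitinib 75 against YFSJ 2.5 went from -0.01 to 0.27 without library 2 of the combination, the highest over the libraries left out, the lowest being -0.19 without library 1.

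Nothing in the labels says that a replicate number marks a shared culture or day. Correlations of same-number libraries, as deviations from their group means, passed 0.1 in 56 of 360 pairs, with a median of -0.0111. All 3 passed 0.1 in 1 of 120 group pairs. A cut on deviations from means of 3 libraries cannot settle pairing, so it is not known. With the number as a replicate block the families gave 25, 42, 17, 36, 15, 8, 24 and 2 calls in the order above.

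Without the 10 libraries with liver transcripts the calls were 23 of 23 for single agents, 36 against 38, 10 against 12, 17 against 22, 7 against 9, 17 against 18 and 2 against 2 over the comparisons that remain, and the mean interactions could not be given. Apart from the fits without 1 library, calls over all genes moved by more than 1.5 times in 80 cases, 66 of them in comparisons with YFSJ. Among comparisons with many calls, 24 h against 0 h went from 3980 to 145 with only library 3 of 0 h and to 93 with only the libraries compared. Without the liver transcript libraries CKI 2 + gefitinib 50 against CKI 2 went from 1746 to 404 and against CKI 1 + gefitinib 50 from 6003 to 2788. The fits without 1 library moved them that far in 151 further cases, over 22 comparisons, 16 of these with YFSJ. In the other comparisons, 24 h against 0 h went from 3980 to 1065 and 6016 without libraries 1 and 3 of 0 h and to 2583 without library 2 of 24 h. CKI 1 + gefitinib 75 against CKI 1 + gefitinib 50 went from 1743 to 670 and 528 without libraries 1 and 3 of the latter and to 475 without library 1 of the former. CKI 2 + gefitinib 75 against CKI 2 + gefitinib 50 went from 247 to between 27 and 131 without any library of the latter or library 2 or 3 of the former. Against CKI 2, CKI 2 + gefitinib 50 went from 1746 to 1050 without library 3 of CKI 2 and 1111 without library 1 of the combination. CKI 2 + gefitinib 75 against CKI 2 went from 4760 to 3165 without library 3 of the combination, and gefitinib 75 against gefitinib 50 from 5 to 2 without library 3 of gefitinib 75. Library size alone shifted the median of all genes by up to 0.23 (log2). MXD3, with as few as 60 counts, has the least precise values.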
